A study of Homo sapiens with 6 samples.

Results

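Each of the 3 DICER1 genotypes of H1 cells was sequenced in a sample numbered 1 and a sample numbered 2, and here the 3 samples numbered 1 were compared with the 3 numbered 2, with genotype as a block. The comparison uses all 6 of the 6 samples of the series and was set by the replicate number in the sample titles, not by any measured value. H1 is an established human embryonic stem cell line. The genotypes were unedited wild type, hemizygous for S1344L, a cancer hotspot change in DICER1 made with CRISPR-Cas9, and homozygous for S1344L, and all 6 samples share the H1 background. DICER1 is the enzyme that cuts microRNA precursors. The labels do not say what the replicate number marks, and they do not state whether both samples of a genotype were grown or cloned apart. The spread behind each p-value of this comparison is how the difference of number 2 from number 1 varies among the 3 genotypes. It comes from these 6 libraries and may be technical. Passage, medium and culture density are not given in the labels for either number.

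Human embryonic stem cells are grown as dense epithelial colonies on a matrix, in medium that supplies growth factors of the FGF and Nodal/Activin families, sugars, amino acids and, depending on the recipe, lipids and metals. Several transcript families follow this environment closely. Enzymes of cholesterol and fatty acid synthesis are induced by the SREBP factors when membrane sterol is low, metallothioneins bind zinc and copper and are induced by MTF1 when these metals are plentiful, and glycolytic enzymes and BNIP3 are induced by HIF1 when oxygen is low. These are textbook relations and were not measured here.

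The listed counts summed to between 38164848 and 52924532 per sample over 16199 genes, and the totals of the samples numbered 1 and 2 overlapped. Values are given in CPM, library-scaled counts with TMM factors, always in the order wild type, hemizygous, homozygous. A difference is the log2 fold change of number 2 over number 1 with its standard error, and a gene is said to rise or fall only where edgeR's quasi-likelihood test gave a Benjamini-Hochberg adjusted p under 0.05. All 9 pluripotent stem cell markers were listed, with a summed level of 7970 to 9135 CPM in the samples numbered 1 and 7769 to 8675 CPM in those numbered 2, and none of the 9 passed the test. POU5F1, the central pluripotency factor, stood at 87.9, 84.4 and 107 CPM in the samples numbered 1 and 88, 128 and 129 CPM in those numbered 2 (adjusted p = 0.11, edgeR). SOX2 stood at 341, 353 and 374 CPM in the samples numbered 1 and 378, 419 and 412 CPM in those numbered 2 (adjusted p = 0.12, edgeR), NANOG had an adjusted p of 0.52 and LIN28A one of 0.77. DICER1 itself stood at 169, 118 and 129 CPM in the samples numbered 1 and 126, 96.4 and 118 CPM in those numbered 2, and its log2 difference of -0.28 ± 0.08 missed the threshold (adjusted p = 0.051, edgeR). A transcript level does not check a single-residue edit.

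The samples numbered 2 differed from those numbered 1 in 3322 genes. Of all genes tested, 1377 rose (8.5%) and 1945 fell (12%), with an adjusted p under 0.05 by edgeR. Among these calls 213 rose and 117 fell by more than 2-fold, so most of the called differences were small, with a median size of 0.494 on the log2 scale. Replicate number held 47.77% of the variance of log2 CPM summed over genes with 1 degree of freedom, genotype 30.71% with 2 and the remainder 21.52% with 2. It was the largest of the 3 shares for 51.98% of genes. Without hemizygous 2 the order turned, with 31.86% for replicate number and 37.09% for genotype. The calls rested on some samples more than on others. With hemizygous 1 left out 0 genes rose and 1 fell, and with hemizygous 2 left out 1 rose and 2 fell. Without wild type 1 the counts were 434 and 706, and without wild type 2 they were 392 and 685. Without homozygous 1 they grew to 2981 and 3285, and without homozygous 2 to 2971 and 3283. Each of these fits has 1 residual degree of freedom, and the sample left without its partner carries no information on the replicate number. The split between rises and falls depends on the scaling, with 41.5% of calls rising under TMM and 62.5% (2155 rising, 1294 falling) under upper-quartile scaling, which moves the median log2 difference of all genes from 0.00239 to 0.0765.

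Of the 3 pairs, wild type and hemizygous were most alike in their differences. Across 16199 genes, which are not independent replicates, the difference between number 2 and number 1 had a Pearson correlation of 0.741 between the wild-type and hemizygous pairs, 0.357 between wild type and homozygous, and 0.476 between hemizygous and homozygous. More than 2-fold differences were seen in 824 genes of the wild-type pair, 933 of the hemizygous pair and 318 of the homozygous pair. In wild type 2, 494 genes were more than 2-fold higher than in wild type 1. Of these, 94.9% were also higher in hemizygous 2 (median log2 difference 1.00) and 84.6% in homozygous 2 (median 0.46). Among all genes 50.7% were higher in hemizygous 2 and 48.9% in homozygous 2. Of 330 genes more than 2-fold lower in wild type 2, 94.2% were lower in hemizygous 2 (median -1.08). In homozygous 2 the share was 64.8% (median -0.16). Among all genes 49.3% were lower in hemizygous 2 and 51.1% in homozygous 2. In all 3 pairs 65 genes passed 2-fold in the same direction, 50 of them higher and 15 lower in number 2.

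**Figure D1:**
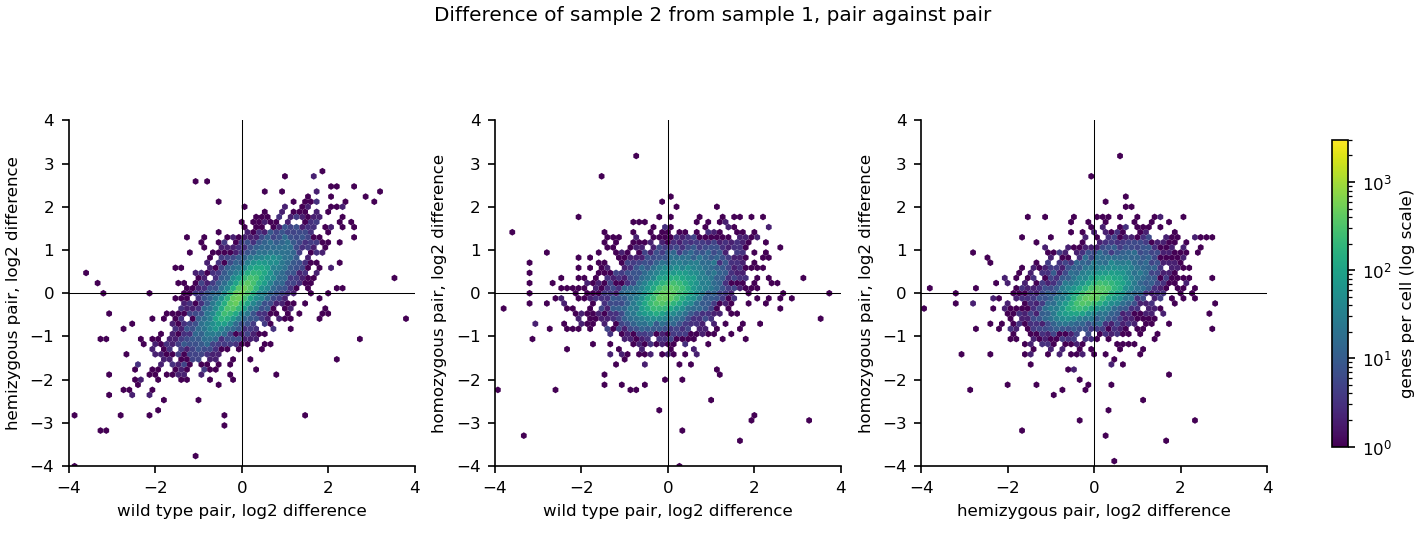
Log2 difference of sample 2 over sample 1 for each gene, 1 pair against another, with colour giving the number of genes per cell on a log scale (10 genes with a value beyond 4 in a pair lie outside the axes). The cloud is narrowest for wild type against hemizygous (r = 0.741) and broadest for wild type against homozygous (r = 0.357).

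The difference ran along transcript length and base composition. In the decile of genes with the longest transcripts 63 rose and 512 fell, and in the shortest decile 209 rose and 28 fell. In the decile richest in G and C 345 rose and 16 fell, and in the poorest decile 68 rose and 372 fell. Across 15913 genes with an annotated transcript, Spearman's rho of the difference was -0.359 with length and 0.395 with GC content. The length relation was present in all 3 pairs (-0.222, -0.365 and -0.340 for wild type, hemizygous and homozygous), whereas the GC relation was 0.448 and 0.396 in wild type and hemizygous and 0.148 in the homozygous pair. Long noncoding genes moved mostly upward, with 246 of 1642 rising and 37 falling (median 0.24), beside 1008 rising and 1866 falling among 13276 protein-coding genes (median -0.03). With both trends removed from each sample, 1145 genes rose (7.07%) and 1318 fell (8.14%), of which 786 and 1004 were also called without the correction. The replicate number then held 44.55% of the variance, an alternative added after the data were seen. For a named gene the value with the trends removed is given where it ends the call. For a gene list the calls are to be read beside the shares of all genes, 8.5% rising and 12% falling. Calls with the trends removed are to be read beside 7.07% rising and 8.14% falling.

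**Figure D2:**
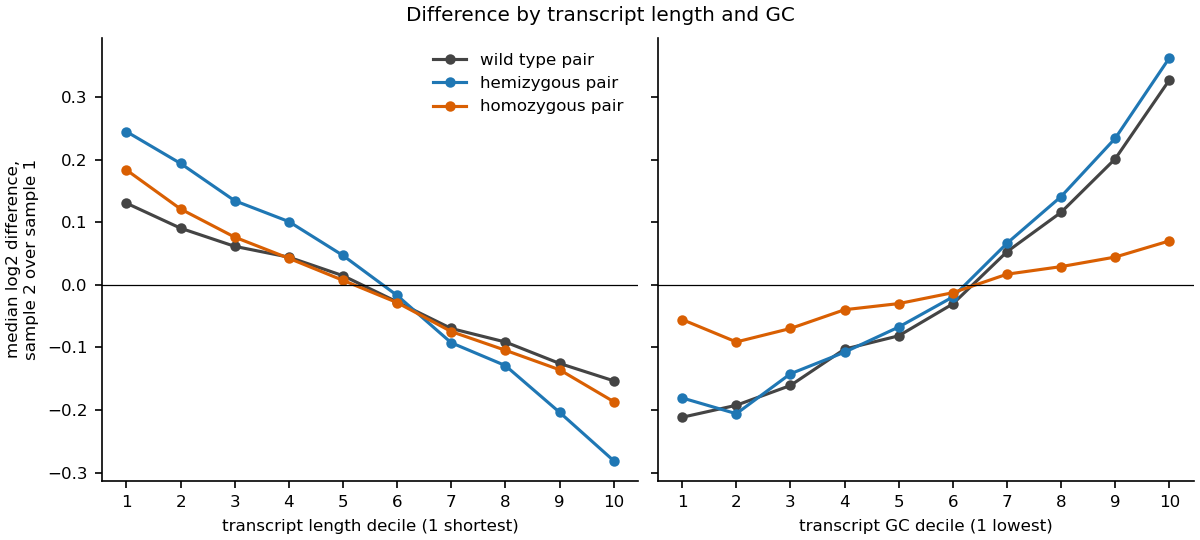
Median log2 difference of sample 2 over sample 1 in 10 equal groups of genes ranked by transcript length (left) or transcript GC content (right), for each pair. The lines fall with length in all 3 pairs and rise with GC, in the homozygous pair only from -0.06 to 0.07.

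Cholesterol synthesis was the list with the largest share of falls. Of 25 listed genes 16 fell and none rose, with a median log2 difference of -0.57 beside 0.00239 for all genes. IDI1, which isomerises the isoprenoid building block, stood at 163, 154 and 89 CPM in the samples numbered 1 and 73.1, 64.1 and 61.8 CPM in those numbered 2, and it fell by 0.99 ± 0.14. CYP51A1, which removes a methyl group from lanosterol, stood at 6.83, 5.68 and 4.1 CPM in the samples numbered 1 and 3.56, 2.24 and 1.94 CPM in those numbered 2 and fell by 1.12 ± 0.16, though its low level for a widely expressed enzyme leaves the assignment of its reads in doubt. HMGCS1, which makes HMG-CoA and was chosen after its values were seen, stood at 693, 661 and 396 CPM in the samples numbered 1 and 357, 297 and 278 CPM in those numbered 2. The samples numbered 1 were all higher than those numbered 2, without overlap, and it fell by 0.87 ± 0.12 (adjusted p = 0.012, edgeR). In IDI1 and HMGCS1 the highest values were those of wild type 1 and hemizygous 1, and homozygous 1 lay between them and the samples numbered 2. The median was -0.57 in the wild-type pair, -0.65 in the hemizygous pair and -0.32 in the homozygous pair. With length and GC trends removed 19 of the 25 fell, with a median of -0.53.

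The stretches upstream of these genes are shown because SREBP factors act together with NF-Y, which binds the letters CCAAT. RefSeq promoters of GRCh38.p14 were given for 18 of the 25 genes, and the motifs were searched on both strands of the 250 bases before the transcription start. CCAAT was found in 15 of the 18 (83.3%), and in 34.5% of the 11412 measured genes with a promoter. Of 11 called genes with a promoter, 9 held it, a share no higher than that of the 18. The sterol element TCACNCCAC was found in SREBF2 and in no other of the 18, and in 0.885% of all promoters. Capitals mark CCAAT in either orientation (read as ATTGG on the other strand) and the sterol element. HMGCS1 (chr5:43313413-43313662, minus strand) holds CCAAT at 2 places, MSMO1 (chr4:165327419-165327668, plus strand), an enzyme that removes sterol methyl groups, at 4, and SREBF2 (chr22:41832855-41833104, plus strand), which encodes SREBP2, at 1 place beside its 1 sterol element. MSMO1 and SREBF2 were also chosen after their values were seen. Each stretch is written 5′ to 3′ on the strand of its gene. 
HMGCS1: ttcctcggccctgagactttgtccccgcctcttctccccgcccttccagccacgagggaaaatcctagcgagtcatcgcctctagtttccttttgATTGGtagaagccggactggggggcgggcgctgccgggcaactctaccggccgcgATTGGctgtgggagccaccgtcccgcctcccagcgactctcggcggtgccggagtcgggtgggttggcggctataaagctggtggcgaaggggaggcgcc
MSMO1: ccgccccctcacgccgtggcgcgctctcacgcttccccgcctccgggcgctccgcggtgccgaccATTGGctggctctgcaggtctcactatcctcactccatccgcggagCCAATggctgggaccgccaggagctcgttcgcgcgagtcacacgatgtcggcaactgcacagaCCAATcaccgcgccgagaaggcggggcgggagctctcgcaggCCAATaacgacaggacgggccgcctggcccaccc
SREBF2: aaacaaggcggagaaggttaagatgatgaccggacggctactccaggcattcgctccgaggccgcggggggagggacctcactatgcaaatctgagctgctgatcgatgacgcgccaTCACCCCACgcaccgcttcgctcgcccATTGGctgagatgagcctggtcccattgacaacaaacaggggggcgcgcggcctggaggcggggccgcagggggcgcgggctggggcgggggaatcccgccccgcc
MSMO1 stood at 279, 272 and 140.3 CPM in the samples numbered 1 and 142, 133 and 118 CPM in those numbered 2 and fell by 0.76 ± 0.15, with homozygous 1 just below wild type 2, so that its groups overlapped. SREBF2 was not called, at 402, 385 and 399 CPM in the samples numbered 1 and 405, 348 and 336 CPM in those numbered 2 (adjusted p = 0.28, edgeR). A match of letters is a description of the window and not a measured binding site.

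Fatty acid synthesis moved the same way. Of 14 genes 8 fell and none rose, with a median of -0.42 (-0.43, -0.58 and -0.26 in the 3 pairs). SCD, which puts the double bond into stearic acid and was the most abundant of the named lipid enzymes, stood at 2359.6, 2465 and 1906 CPM in the samples numbered 1 and 1372, 1273 and 1144 CPM in those numbered 2. All samples numbered 1 were above all numbered 2, and it fell by 0.82 ± 0.09 (adjusted p = 0.012, edgeR). ACSL3, which activates long fatty acids with coenzyme A, stood at 316, 338 and 212 CPM in the samples numbered 1 and 167, 169 and 158 CPM in those numbered 2 and fell by 0.79 ± 0.12. ACACA, the acetyl-CoA carboxylase that starts the pathway, was listed at only 17.6, 8.81 and 7.98 CPM in the samples numbered 1 and 2.92, 5.24 and 1.67 CPM in those numbered 2, and it fell by 1.83 ± 0.34, which is uncertain for the same reason as that of CYP51A1.

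**Figure D3:**
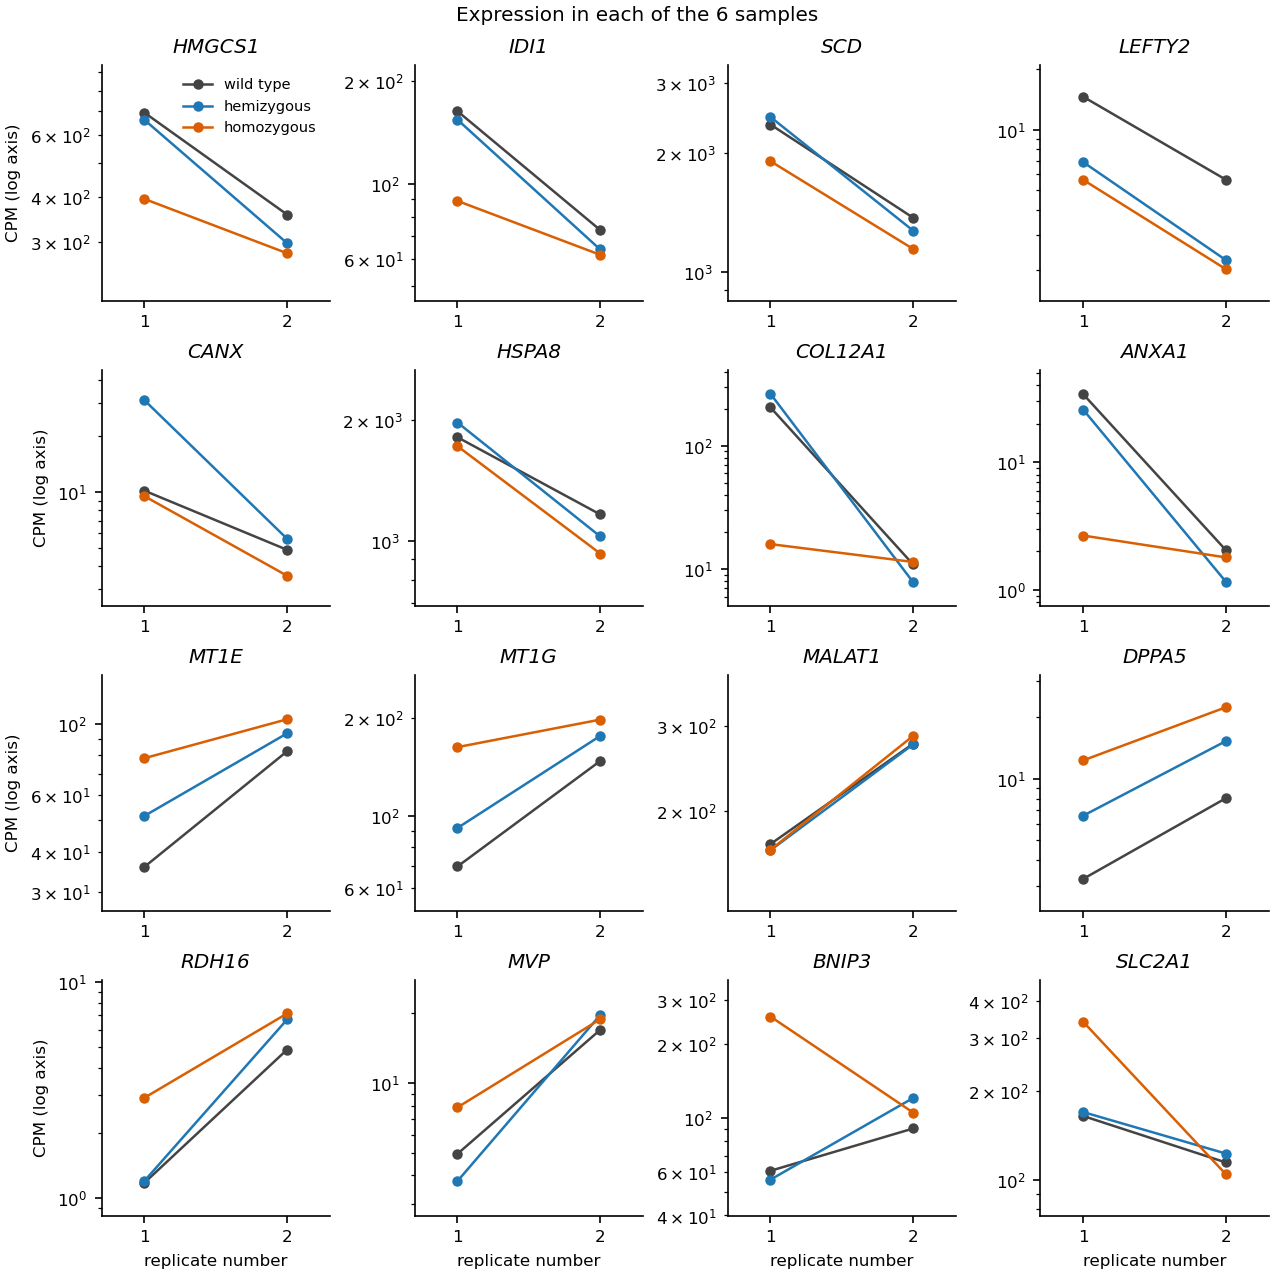
Expression of 16 named genes in each of the 6 samples, in CPM on a log axis, with a line joining the samples numbered 1 and 2 of a genotype. HMGCS1, IDI1, SCD, LEFTY2, CANX and HSPA8 fall in all 3 pairs, COL12A1 and ANXA1 are high only in wild type 1 and hemizygous 1, and BNIP3 and SLC2A1 are highest in homozygous 1.

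Chaperones of the endoplasmic reticulum and nutrient carriers were lower in number 2 as well. In the list of the unfolded protein response 9 of 20 genes fell and none rose (median -0.25), and 10 fell with length and GC trends removed. HSPA5, the main ER chaperone BiP, stood at 702, 763 and 641 CPM in the samples numbered 1 and 414, 431 and 433 CPM in those numbered 2 and fell by 0.72 ± 0.08 (adjusted p = 0.012, edgeR). SEL1L, part of the complex that exports misfolded proteins, fell by 0.64 ± 0.09. CANX, the ER lectin calnexin, fell by 1.67 ± 0.26 from 10.2, 31.1 and 9.5 CPM to 4.89, 5.6 and 3.54 CPM, levels low enough for a widely expressed gene to put its reads in doubt. Of 17 heat shock genes 4 fell, and 2 with the trends removed, led by HSPA8, the constitutive cytosolic HSP70, at 1816, 1976 and 1725 CPM in the samples numbered 1 and 1166, 1027 and 931 CPM in those numbered 2. Its samples did not overlap and it fell by 0.82 ± 0.09. HSPA4L, an HSP70 exchange factor, fell by 0.61 ± 0.12, but not with length and GC trends removed (adjusted p = 0.066, edgeR), and HSP90AA1, the inducible HSP90, by 0.46 ± 0.08. Among carriers of amino acids and glucose 6 of 15 fell and none rose (median -0.29). SLC7A5, the large neutral amino acid carrier, stood at 558, 656 and 359.8 CPM in the samples numbered 1 and 358, 284 and 262 CPM in those numbered 2 and fell by 0.77 ± 0.14, and SLC38A1, a glutamine carrier, fell by 0.68 ± 0.11. In the ATF4 list 8 of 33 fell and 1 rose (median -0.18). SLC7A1, SLC7A5, SLC3A2 and SLC38A2 are on both this list and that of the carriers. SLC7A11, the cystine carrier, stood at 56.7, 58.5 and 16.5 CPM in the samples numbered 1 and 23.3, 16.5 and 16.2 CPM in those numbered 2, with wild type 1 and hemizygous 1 above the other 4 samples. It fell by 1.07 ± 0.30, a call that was lost with length and GC trends removed (adjusted p = 0.065, edgeR). SLC38A2, another glutamine carrier, fell by 0.63 ± 0.13, and PYCR1, a proline synthesis enzyme, rose by 0.28 ± 0.08 but not with the trends removed (adjusted p = 0.91, edgeR).

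Many of the largest falls were in matrix, adhesion and actin-linked genes that were abundant in wild type 1 and hemizygous 1 alone. COL12A1, a collagen that decorates collagen I fibrils, stood at 205, 264 and 16 CPM in the samples numbered 1 and 10.9, 7.84 and 11.4 CPM in those numbered 2. Its level was far higher in wild type 1 and hemizygous 1 than in the other 4 samples, and on average it fell by 3.44 ± 0.86 (adjusted p = 0.033, edgeR). ANXA1, a calcium-dependent membrane binding protein, stood at 34.1, 25.8 and 2.67 CPM in the samples numbered 1 and 2.05, 1.16 and 1.8 CPM in those numbered 2, and it fell by 3.23 ± 0.68. MYOF, a membrane repair protein, fell by 2.43 ± 0.54 and FOXD1, a forkhead factor of mesenchymal progenitors, by 2.20 ± 0.48, with the same 2 samples high. The noncoding RNAs MIR4435-2HG and CYTOR, which are near-identical copies so that their reads may be split, fell by 1.90 ± 0.34 and 1.90 ± 0.43. DCC, the netrin receptor, fell by 2.08 ± 0.40 and LIMCH1, an actin and myosin regulator, by 1.89 ± 0.28. In the list of collagens, laminins and other matrix genes 9 of 22 fell and 1 rose (median -0.31). FBN2 and FBN1, the fibrillins of elastic microfibrils, fell by 0.97 ± 0.14 and 0.95 ± 0.26, the latter not with length and GC trends removed (adjusted p = 0.076, edgeR). LAMA5, the laminin chain that embryonic stem cells lay down, was the member that rose, at 164, 166 and 270.0 CPM in the samples numbered 1 and 297, 303 and 294 CPM in those numbered 2 (0.62 ± 0.15). Of 19 targets of actin-linked SRF and YAP signalling 6 fell and none rose. CCN2, the classical YAP target, stood at 64.3, 55.5 and 25.8 CPM in the samples numbered 1 and 22, 21.1 and 23.3 CPM in those numbered 2 (it fell by 1.04 ± 0.25), TAGLN, a smooth muscle actin binding protein, at 187, 131 and 74.5 CPM in the samples numbered 1 and 63.1, 57.3 and 59.7 CPM in those numbered 2 (it fell by 1.03 ± 0.21), and THBS1, a secreted matricellular protein, fell by 0.83 ± 0.15.

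Fibroblast and mesenchyme markers, which a culture with feeder or differentiating cells would hold, also had a median below 0. Of 16 measured markers 5 fell and none rose (median -0.30, with -0.48, -0.52 and -0.08 in the 3 pairs). TAGLN, 1 of the 5, is also on the list of SRF and YAP targets. COL5A2, a fibrillar collagen chain, stood at 247, 236 and 107 CPM in the samples numbered 1 and 86.7, 87.1 and 87.6 CPM in those numbered 2 and fell by 1.09 ± 0.22. POSTN, periostin, stood at 2.18, 2.66 and 1.87 CPM in the samples numbered 1 and 1.07, 0.93 and 0.665 CPM in those numbered 2. It fell by 1.34 ± 0.21, and its differences in the 3 pairs were -0.99, -1.47 and -1.43, so the homozygous pair fell as well. Of the 7 defining fibroblast markers 4 were listed, and COL3A1, LUM and DCN, which fibroblasts express strongly, were not listed. The summed level of the 4 was 623.7 to 846.9 CPM in the samples numbered 1 and 667.9 to 776.4 CPM in those numbered 2, and these ranges overlapped. Of the 4 markers 2 fell, and THY1, with a mean of 388.2 CPM, was the most abundant of them. Of 5 measured genes in the broader list of primitive streak and endoderm 2 fell (median -0.64), and 3 with the trends removed. Of its 5 defining markers MIXL1 alone was listed, at 3.07, 2.95 and 2.64 CPM in the samples numbered 1 and 1.23, 2.39 and 2.04 CPM in those numbered 2 (adjusted p = 0.093, edgeR), and of 5 neural ectoderm markers PAX6 and SOX1 were not listed. Their part in the result was not tested, and in bulk RNA fewer cells of a type and less RNA per cell cannot be told apart.

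The median of the Nodal list was below 0 in all 3 pairs. Of 16 genes 6 fell and none rose (median -0.22, with -0.25, -0.22 and -0.28 in the 3 pairs), and 7 fell and 1 rose with length and GC trends removed. LEFTY2, a secreted Nodal antagonist and target, stood at 14.6, 6.88 and 5.62 CPM in the samples numbered 1 and 5.63, 2.24 and 2.02 CPM in those numbered 2. Each pair fell, and the groups overlapped where wild type 2 met homozygous 1. It fell by 1.48 ± 0.14 (adjusted p = 0.012, edgeR). NODAL, the ligand itself, stood at 53.8, 42.8 and 39.7 CPM in the samples numbered 1 and 14.4, 22.7 and 24.3 CPM in those numbered 2 and fell by 1.16 ± 0.21, without overlap. GDF3, a related ligand, fell by 0.57 ± 0.12. SMAD7, an inhibitory SMAD on both the Nodal list and the BMP list, stood at 47.7, 47.7 and 26.7 CPM in the samples numbered 1. In those numbered 2 it stood at 18.1, 22 and 20.9 CPM, and it fell by 0.96 ± 0.18. Among ERK feedback genes 4 of 15 fell (median -0.17), and 1 fell and 1 rose with the trends removed. IL17RD, an FGF receptor inhibitor, fell by 0.61 ± 0.10, whereas the falls of DUSP6, the ERK phosphatase, and ETV1, an ETS factor, were lost with the correction (adjusted p = 0.077 and 0.69, edgeR). FZD5, a Frizzled receptor for WNT, stood at 252, 287 and 158 CPM in the samples numbered 1 and 99.6, 119.8 and 115 CPM in those numbered 2. It fell by 1.02 ± 0.17. Of 14 WNT targets and partners 3 fell and 1 rose (2 and 2 with the trends removed), the latter CCND2, cyclin D2, at 186, 211 and 265 CPM in the samples numbered 1 and 377, 346 and 369.8 CPM in those numbered 2 (0.74 ± 0.11). NOTCH2, a Notch receptor, stood at 179, 221 and 136 CPM in the samples numbered 1 and 106, 95.3 and 87.3 CPM in those numbered 2 and fell by 0.87 ± 0.12, 1 of 2 falling genes of 12 in the Notch list.

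Genes of retinoic acid handling moved in both directions. Of 11 genes 4 rose and 1 fell (median 0.34). CYP26A1, which breaks retinoic acid down and is induced by it, stood at 9.41, 5.35 and 1.45 CPM in the samples numbered 1 and 2.1, 1.39 and 0.788 CPM in those numbered 2 and fell by 1.75 ± 0.26 (adjusted p = 0.012, edgeR). DHRS3, a retinal reductase, stood at 12.9, 13.7 and 16.3 CPM in the samples numbered 1 and 20.2, 20.6 and 22.9 CPM in those numbered 2 and rose by 0.58 ± 0.09, and RARG, a retinoic acid receptor, by 0.49 ± 0.08. RDH16, a retinol dehydrogenase outside the list, had the largest rise of all named genes, at 1.18, 1.2 and 2.91 CPM in the samples numbered 1 and 4.86, 6.7 and 7.14 CPM in those numbered 2 (1.91 ± 0.24, adjusted p = 0.012, edgeR). Every sample numbered 2 was above every sample numbered 1.

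The metallothionein list, 7 metallothioneins and the zinc exporter SLC30A1, had the highest median of all lists. Of the 8 genes 6 rose, all of them metallothioneins, and none fell, with a median of 0.66 (0.98, 0.84 and 0.26 in the 3 pairs). MT1E stood at 35.8, 51.7 and 78.2 CPM in the samples numbered 1 and 82.2, 93.5 and 103 CPM in those numbered 2, without overlap, a rise of 0.82 ± 0.14 (adjusted p = 0.016, edgeR). MT1M stood at 3.68, 5.94 and 11.6 CPM in the samples numbered 1 and 10.7, 13.8 and 15.7 CPM in those numbered 2 and rose by 1.04 ± 0.21, and MT1G stood at 69.8, 91.7 and 163 CPM in the samples numbered 1 and 148, 176 and 198 CPM in those numbered 2 and rose by 0.77 ± 0.15. In these genes the lowest sample was wild type 1, and homozygous 1 was already near the level of the samples numbered 2. MT2A, the most widely expressed member, stood at 30.7, 36.7 and 77.9 CPM in the samples numbered 1 and 56.3, 73.6 and 69.3 CPM in those numbered 2 and missed the threshold (adjusted p = 0.094, edgeR). SLC30A1, also an MTF1 target, was not called, with a log2 difference of -0.23. With length and GC trends removed MT1E and MT1M alone rose (MT1G, adjusted p = 0.053, edgeR) and the median was 0.35. The metallothionein genes are close copies of each other and reads may be split among them.

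Their promoters are shown for the metal response element, the site of MTF1, whose core was searched as TGCACNC and as TGCGCNC on both strands of the 250 bases before the start. In both stretches shown no matches overlap. RefSeq promoters (GRCh38.p14) were given for MT1H, MT1X, MT2A and SLC30A1, 4 of the 8 genes. TGCACNC was found in 4 of the 4 and in 9.58% of all 11412 promoters, and TGCGCNC in 3 of the 4 (not SLC30A1) and in 26.7% of all. MT1H (chr16:56669564-56669813, plus strand) holds 4 matches of each form and MT1X (chr16:56682220-56682469, plus strand) 2 of each, in capitals in the lines that follow, 5′ to 3′ on the strand of the gene. 
MT1H: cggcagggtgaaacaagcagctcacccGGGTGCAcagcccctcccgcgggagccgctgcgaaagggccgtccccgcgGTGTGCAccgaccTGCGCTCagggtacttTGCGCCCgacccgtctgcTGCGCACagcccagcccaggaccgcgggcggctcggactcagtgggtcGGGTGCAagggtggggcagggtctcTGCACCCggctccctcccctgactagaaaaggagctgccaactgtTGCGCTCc
MT1X: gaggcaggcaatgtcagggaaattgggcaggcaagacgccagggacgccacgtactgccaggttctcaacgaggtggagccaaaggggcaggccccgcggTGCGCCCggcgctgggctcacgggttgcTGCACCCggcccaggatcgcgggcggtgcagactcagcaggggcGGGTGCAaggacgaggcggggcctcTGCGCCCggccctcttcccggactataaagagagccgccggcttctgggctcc
MT1H stood at 19.96, 35.4 and 63.1 CPM in the samples numbered 1 and 41.4, 63 and 66.7 CPM in those numbered 2 and rose by 0.65 ± 0.17, and MT1X, chosen after its values were seen, stood at 25.2, 29.9 and 50.5 CPM in the samples numbered 1 and 47.1, 47.6 and 59.2 CPM in those numbered 2 and rose by 0.60 ± 0.13. Both calls were lost with the trends removed (adjusted p = 0.14 and 0.1, edgeR). In both genes the groups overlapped, with homozygous 1 above wild type 2 and above hemizygous 2.

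Among ribosomal and respiratory chain proteins some genes rose and none fell. Of 29 small-subunit ribosomal protein genes 7 rose and none fell, and all 29 had a difference above 0 (median 0.24). Of 47 large-subunit genes 8 rose and none fell (median 0.25). RPL13 stood at 918, 797 and 1206 CPM in the samples numbered 1 and 1238, 1286 and 1376 CPM in those numbered 2 and rose by 0.44 ± 0.11, and RPS28 stood at 256, 205 and 295 CPM in the samples numbered 1 and 315, 331 and 345 CPM in those numbered 2 and rose by 0.40 ± 0.10. In both, the sample with the lowest value was hemizygous 1. RPL35, RPL36, RPS19 and RPS16 rose by 0.44 ± 0.12, 0.43 ± 0.12, 0.37 ± 0.09 and 0.35 ± 0.08. With length and GC trends removed none of these 4 nor RPS28 passed the test, while RPL13 did, and the medians became 0.09 for the small subunit (3 rising) and 0.08 for the large (6 rising). Of 34 genes of respiratory complex I 5 rose and of 41 genes of the other complexes 6 rose, and none fell (medians 0.19 and 0.19). NDUFC1, a complex I subunit, rose by 0.37 ± 0.08 and ATP5ME, a subunit of ATP synthase, by 0.43 ± 0.08, the latter not with the trends removed (adjusted p = 0.21, edgeR). The corrected medians were 0.02 (2 rising) and 0.07 (5 rising). None of the 15 genes of the mitochondrial genome was called. MT-ND1, a complex I subunit, stood at 1903, 2301 and 2055 CPM in the samples numbered 1 and 1882, 1808 and 1686 CPM in those numbered 2 (adjusted p = 0.14, edgeR).

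The nuclear noncoding RNAs MALAT1 and NEAT1 rose. MALAT1, an RNA of nuclear speckles, stood at 171, 166 and 166 CPM in the samples numbered 1 and 276, 275 and 286 CPM in those numbered 2, with almost the same level in the 3 samples of a number, and rose by 0.74 ± 0.07 (adjusted p = 0.012, edgeR). NEAT1, the scaffold of paraspeckles, stood at 14.7, 16 and 18.5 CPM in the samples numbered 1 and 27.1, 27.5 and 26.5 CPM in those numbered 2 and rose by 0.73 ± 0.10. Removing the length and GC trends raised both values, to 0.98 and 0.98. Of the 8 genes in their list 2 rose and 2 fell, and with the trends removed 4 rose and 0 fell. SNHG14 and OIP5-AS1 fell by 0.32 ± 0.08 and 0.31 ± 0.08, but not with the trends removed (adjusted p = 0.58 and 0.47, edgeR). Among 15 hosts of small nucleolar RNAs EPB41L4A-AS1 and SNHG15 rose (0.38 ± 0.10 and 0.37 ± 0.10) and SNHG5, at 18.4, 18.2 and 12.5 CPM in the samples numbered 1 and 9.75, 8.92 and 9.11 CPM in those numbered 2, fell by 0.80 ± 0.14. The splicing factors LUC7L, LUC7L2 and LUC7L3 rose by 0.54 ± 0.11, 0.52 ± 0.09 and 0.34 ± 0.08, whereas SON, a speckle protein, SRSF2 and TRA2B fell by 0.54 ± 0.09, 0.41 ± 0.08 and 0.27 ± 0.07 (TRA2B not with the trends removed, adjusted p = 0.12, edgeR). Of 36 splicing genes (median -0.01) 4 rose (11.1%) and 3 fell (8.33%), beside 8.5% and 12% of all genes.

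The other genes among the 12 largest rises were listed at low levels. MVP, the major vault protein, stood at 4.96, 3.78 and 7.87 CPM in the samples numbered 1 and 17, 19.7 and 18.9 CPM in those numbered 2 and rose by 1.79 ± 0.20 (adjusted p = 0.012, edgeR). CTCFL, a germline relative of CTCF, stood at 2.06, 2.56 and 7.05 CPM in the samples numbered 1 and 10.3, 10.1 and 12.7 CPM in those numbered 2 and rose by 1.68 ± 0.27, and MAGEA4, a cancer-testis antigen, rose by 1.70 ± 0.22 from 0.54, 0.808 and 1.52 CPM to 2.2, 3.06 and 3.67 CPM. COL20A1, a minor collagen, rose by 1.89 ± 0.30, CATSPERG, a subunit of the sperm calcium channel, by 1.78 ± 0.21, INMT, a methyltransferase of indoles, by 1.72 ± 0.19, and PRSS27, a serine protease, by 1.72 ± 0.25. SMIM38 and FAM163B rose by 1.86 ± 0.25 and 1.64 ± 0.23, and LINC02641, a long noncoding RNA, and SSPOP by 1.72 ± 0.48 and 1.68 ± 0.34. LINC02641 did not pass with length and GC trends removed (adjusted p = 0.072, edgeR). Among the 12 largest rises, MVP and CTCFL alone exceeded 10 CPM in a sample.

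Of 24 core pluripotency genes 2 rose and 2 fell (8.33% each, median -0.01), beside 8.5% and 12% of all genes. With length and GC trends removed 0 rose and 4 fell (median 0.06). TERT, the telomerase reverse transcriptase, stood at 23.8, 23.1 and 35 CPM in the samples numbered 1 and 38.1, 35.4 and 36.6 CPM in those numbered 2 and rose by 0.45 ± 0.13, and ZSCAN10, a zinc-finger factor of stem cells, rose by 0.42 ± 0.10; neither passed with length and GC trends removed (adjusted p = 0.065 and 0.12, edgeR). LIN28B, the let-7 inhibitor, stood at 253, 274 and 209 CPM in the samples numbered 1 and 182, 182 and 165 CPM in those numbered 2 and fell by 0.47 ± 0.08. In the list of naive pluripotency 1 of 9 rose and 2 fell. DPPA5, an RNA binding protein of early embryos, stood at 3.24, 6.6 and 12.3 CPM in the samples numbered 1 and 8.03, 15.3 and 22.4 CPM in those numbered 2. It rose in each pair, by 1.12 ± 0.13 (adjusted p = 0.012, edgeR), and the groups overlapped between wild type 2 and homozygous 1. KLF5 and TFCP2L1, factors of the naive state, fell by 0.55 ± 0.15 and 0.40 ± 0.09, calls that were lost with the trends removed (adjusted p = 0.063 and 0.071, edgeR). ETS1, an ETS factor listed with neural crest, stood at 107, 111 and 106 CPM in the samples numbered 1 and 50.7, 63.5 and 61.4 CPM in those numbered 2 and fell by 0.89 ± 0.09, GABRP, an amnion and trophoblast marker, rose by 0.79 ± 0.12, and NEFL, the light neurofilament, stood at 55.3, 51.6 and 46 CPM in the samples numbered 1 and 35, 33.9 and 25.7 CPM in those numbered 2 and fell by 0.70 ± 0.08.

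Of 42 genes of G1/S and DNA replication 10 fell and 2 rose (median -0.09), and 7 fell and 1 rose with length and GC trends removed. RRM2, a ribonucleotide reductase subunit, stood at 171, 178 and 139 CPM in the samples numbered 1 and 117, 109.7 and 105 CPM in those numbered 2 and fell by 0.55 ± 0.08, and CDC6, which loads the replicative helicase, by 0.45 ± 0.09. Of 39 genes of G2/M 6 fell (15.4%) and 3 rose (7.69%), near the shares of all genes (12% and 8.5%). The median was 0.03, and with the trends removed 0 fell and 2 rose (median 0.09). CKS2, a CDK subunit, rose by 0.47 ± 0.08. Ribosome biogenesis factors fell in 9 of 37 cases and rose in none, and 5 fell with the trends removed. UTP20, a pre-ribosomal processing factor, stood at 116, 141 and 109 CPM in the samples numbered 1 and 72, 66.8 and 62.9 CPM in those numbered 2 and fell by 0.86 ± 0.09, and DDX21, a nucleolar helicase, stood at 615, 647 and 566 CPM in the samples numbered 1 and 398, 379 and 340.4 CPM in those numbered 2 and fell by 0.71 ± 0.08. MYC fell by 0.34 ± 0.09. Of 36 translation factors 7 fell and 1 rose, and EIF4B, a helicase cofactor, stood at 1002, 1010.0 and 1019.9 CPM in the samples numbered 1 and 801, 759.6 and 685 CPM in those numbered 2 and fell by 0.44 ± 0.08. In the p53 list 2 of 26 genes fell (7.69%) and 1 rose (3.85%), below the shares of all genes. With the trends removed 3 fell and 0 rose. PLK2, a stress-induced kinase, stood at 41, 34.2 and 16 CPM in the samples numbered 1 and 11.8, 14.1 and 15.1 CPM in those numbered 2 and fell by 1.06 ± 0.28, and DDB2, a DNA damage sensor, rose by 0.48 ± 0.11, though not with the trends removed (adjusted p = 0.079, edgeR). XIAP, a caspase inhibitor, stood at 77.5, 93.2 and 66.6 CPM in the samples numbered 1 and 52.3, 55.5 and 50.02 CPM in those numbered 2 and fell by 0.58 ± 0.09. Of 22 apoptosis genes 3 fell (13.6%) and 2 rose (9.09%), near the shares of all genes. In a list of 16 genes, made of clock genes and others such as TXNIP, 4 rose and 1 fell. The clock gene PER3 stood at 22.9, 24 and 23.7 CPM in the samples numbered 1 and 33.1, 37.3 and 33.8 CPM in those numbered 2. It rose by 0.56 ± 0.08, and CRY1, another clock gene, fell by 0.38 ± 0.08. Among 20 interferon genes 4 rose and 3 fell, and with the trends removed none rose. ADAR, the RNA editing enzyme, stood at 499, 511 and 408 CPM in the samples numbered 1 and 393, 358 and 317 CPM in those numbered 2 and fell by 0.41 ± 0.08.

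Clustered protocadherins, surface proteins that neurons and stem cells choose stochastically from gene arrays, fell in 12 of 47 genes and rose in 2 (median -0.28). PCDHA11 stood at 9.76, 12.3 and 5.24 CPM in the samples numbered 1 and 3.5, 3.28 and 2.98 CPM in those numbered 2 and fell by 1.41 ± 0.21 (adjusted p = 0.013, edgeR), whereas PCDHB4 stood at 3.78, 4.3 and 5.86 CPM in the samples numbered 1 and 5.83, 7.44 and 7.73 CPM in those numbered 2 and rose by 0.60 ± 0.14. Isoforms of the alpha and gamma arrays share their last exons, so their reads may be split. Genes of chromosome band 20q11, a region that stem cell cultures often gain, fell in 6 of 16 cases, 4 with the trends removed, and rose in none (median -0.27, with -0.33, -0.34 and 0.0007 in the 3 pairs). KIF3B, a kinesin motor, stood at 56.1, 66.4 and 38.5 CPM in the samples numbered 1 and 31.1, 30.8 and 26.2 CPM in those numbered 2 and fell by 0.84 ± 0.11, and POFUT1, which adds fucose to Notch, by 0.60 ± 0.12. ASXL1, a chromatin factor, fell by 0.46 ± 0.12, though not with the trends removed (adjusted p = 0.055, edgeR). Of 14 imprinted genes 1 rose (7.14%) and 2 fell (14.3%), near the shares of all genes (8.5% and 12%). With the trends removed 2 rose and 1 fell. L3MBTL1 rose (0.64 ± 0.09) and PEG10 and MEST fell by 0.48 ± 0.09 and 0.27 ± 0.07 (MEST not with the trends removed, adjusted p = 0.053, edgeR).

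**Figure D4:**
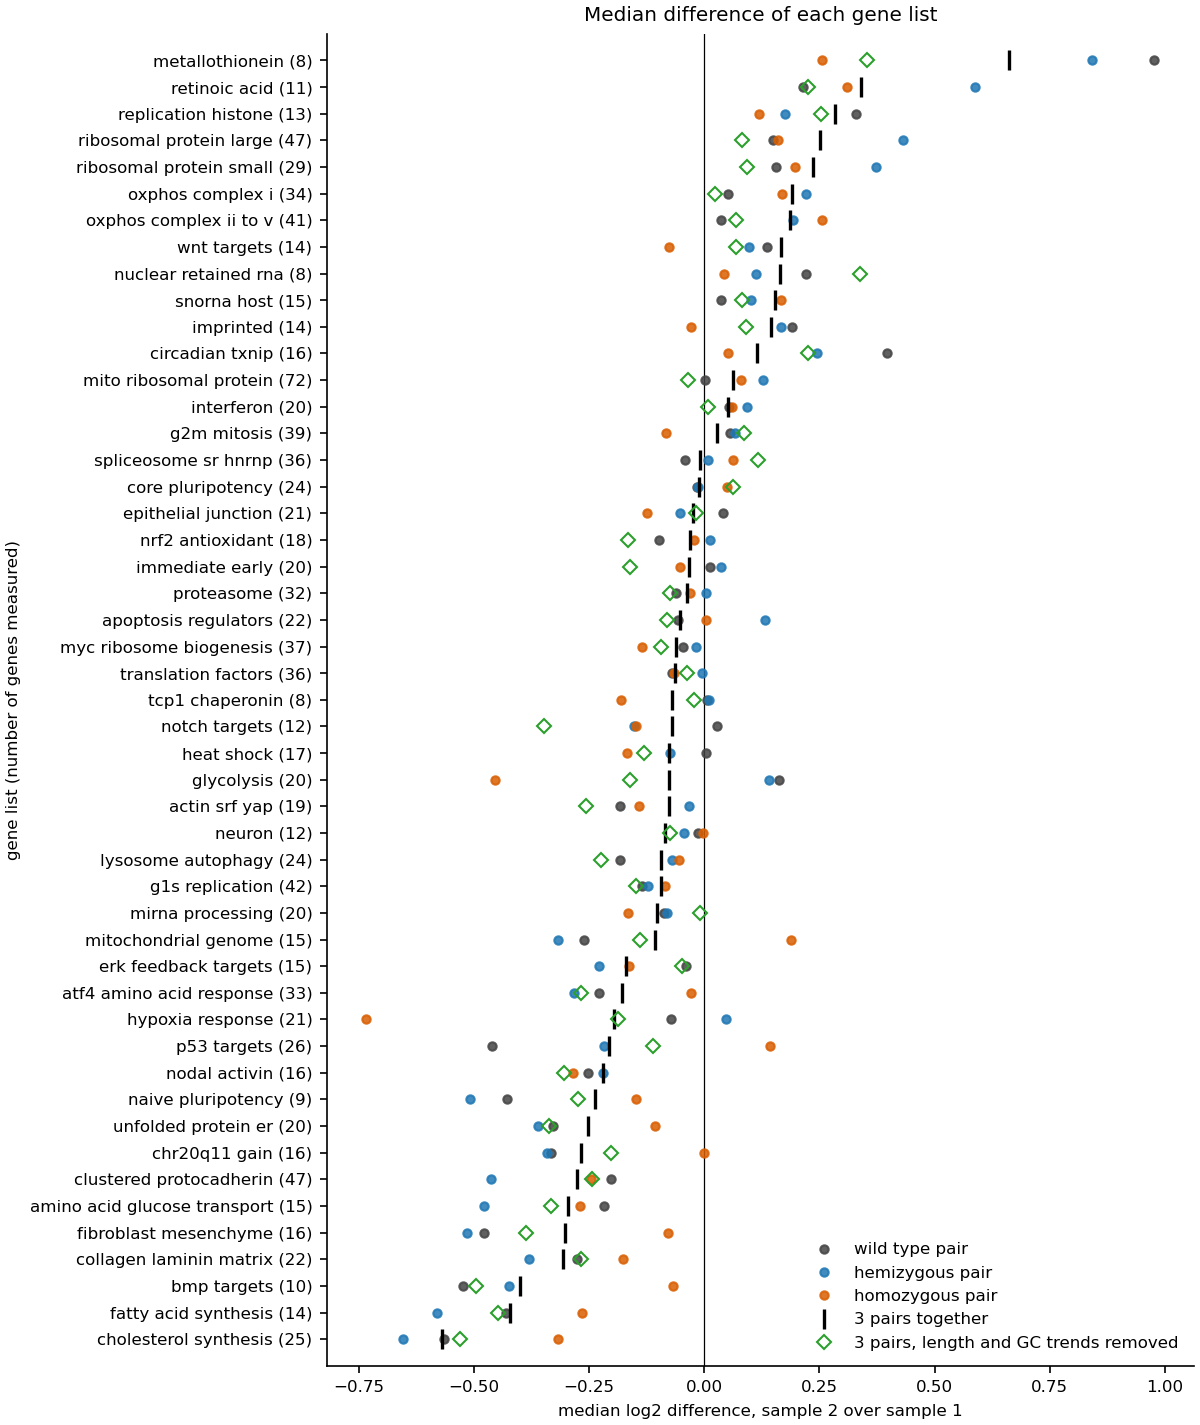
Median log2 difference of sample 2 over sample 1 for each gene list with at least 8 measured genes, by pair (points), for the 3 pairs together (bars) and with length and GC trends removed (open diamonds). Cholesterol synthesis lies at -0.57 and metallothioneins at 0.66, and the hypoxia, glycolysis, p53 and mitochondrial genome lists have homozygous points on the other side of the hemizygous ones.

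The difference was not the same in every pair. With 1 sample per genotype and number, a departure of a genotype cannot be told apart from that of a single library. Each test takes its residual from the disagreement of the other 2 pairs. For the homozygous test these were wild type and hemizygous, the most alike, so the counts of the 3 tests are not directly comparable. Testing whether the change in 1 genotype departed from that in the other two (edgeR, 1 residual degree of freedom), 339 genes were called for the homozygous pair. Of these 195 had a more positive (1.2% of all genes) and 144 a more negative change (0.889%). The calls sorted by GC content. In the decile richest in G and C 4 were more positive and 47 more negative, and in the poorest decile 25 and 6. Interaction values of named genes are given without removal of the trends. For the hemizygous pair 3 genes were called (0.0185%), with 220 at an unadjusted p under 0.05. For the wild-type pair edgeR called 0 genes, with 291 at an unadjusted p under 0.05, and DESeq2 called 6. COL12A1 departed from the other pairs by 4.17 ± 0.29 on the log2 scale (adjusted p = 0.00036), ANXA1 by 3.69 ± 0.29 and SLC7A11 by 1.53 ± 0.22. In these the interaction is positive, and homozygous 1 lay near the samples numbered 2. MT2A departed by -1.11 ± 0.14 (adjusted p = 0.0047) and MT1H by -0.86 ± 0.15 (adjusted p = 0.02), with homozygous 1 already high.

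Hypoxia and glycolysis genes departed in the homozygous pair toward lower values in number 2. In the hypoxia list 9 of 21 genes had a more negative change there and none a more positive one, and the list medians were -0.07, 0.05 and -0.73. BNIP3, a HIF1-induced mitophagy receptor, stood at 60.8, 55.9 and 257 CPM in the samples numbered 1 and 90.3, 120.1 and 105 CPM in those numbered 2, so that homozygous 1 was the highest sample and the other 2 genotypes had more in number 2. The departure was -2.13 ± 0.20 (adjusted p = 0.0012, edgeR). DDIT4, an inhibitor of mTORC1, stood at 43.9, 34.7 and 149 CPM in the samples numbered 1 and 42, 45.7 and 35.8 CPM in those numbered 2, with homozygous 1 high and the other 5 samples close together (-2.23 ± 0.19, adjusted p = 0.00071, edgeR). BHLHE40, a hypoxia-induced repressor, stood at 9.95, 8.94 and 20.004 CPM in the samples numbered 1 and 5.83, 4.63 and 4.06 CPM in those numbered 2 (-1.44 ± 0.22). ANKRD37, a small HIF1 target, stood at 0.521, 0.469 and 2.45 CPM in the samples numbered 1 and 0.691, 1.35 and 1.11 CPM in those numbered 2 and missed the threshold (adjusted p = 0.066, edgeR). In the glycolysis list 8 of 20 genes had a more negative change and none a more positive one, with medians of 0.16, 0.14 and -0.45. SLC2A1, the glucose carrier GLUT1, stood at 164, 169 and 340.5 CPM in the samples numbered 1 and 115, 123 and 105 CPM in those numbered 2 (-1.21 ± 0.14, adjusted p = 0.0035, edgeR). It also fell on average over the 3 pairs, by 0.89 ± 0.23, as did PFKFB3, a regulator of glycolytic flux, by 0.52 ± 0.12, and ADM, adrenomedullin, by 1.10 ± 0.12. Named after their values were seen, PGK1, phosphoglycerate kinase, stood at 431, 434 and 896 CPM in the samples numbered 1 and 433, 457 and 418 CPM in those numbered 2 (-1.14 ± 0.15), and SLC16A3, the lactate exporter MCT4, at 16.9, 16.7 and 74.1 CPM in the samples numbered 1 and 24.1, 26.9 and 24.5 CPM in those numbered 2 (-2.19 ± 0.15). In both, homozygous 1 stood above all 5 other samples.

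**Figure D5:**
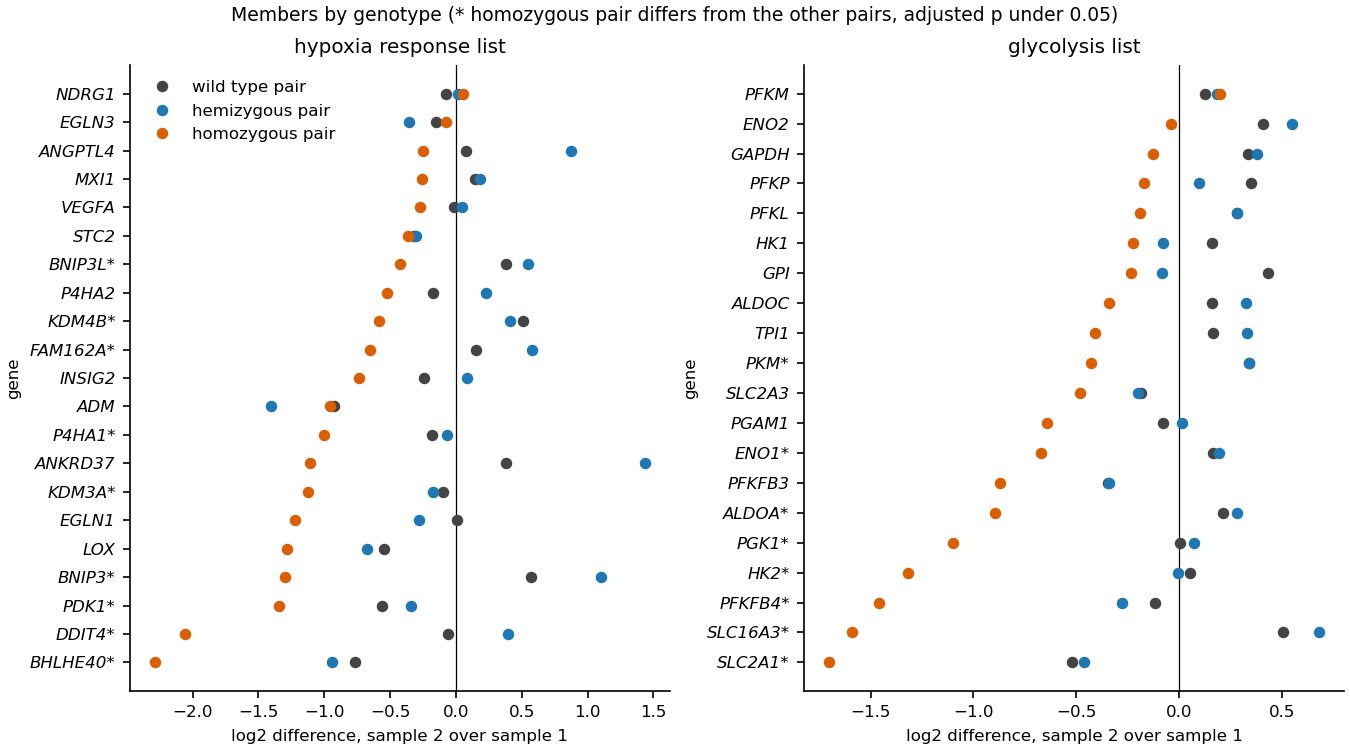
Log2 difference of sample 2 over sample 1 for each measured member of the hypoxia response and glycolysis lists, by pair, with an asterisk on the 9 and 8 genes whose homozygous difference departs from the other pairs. The homozygous points lie to the left of both other points for BNIP3, DDIT4, SLC2A1 and PGK1.

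Targets of p53 went the other way. In 6 of 26 the homozygous change was more positive than in the other pairs and in none more negative, and the list medians were -0.46, -0.22 and 0.14. The 6, named after their values were seen, were CDKN1A, MDM2, TNFRSF10B, GDF15, ZMAT3 and PLK2. CDKN1A, the CDK inhibitor p21, stood at 112, 75.7 and 32.8 CPM in the samples numbered 1 and 44.6, 45 and 46.2 CPM in those numbered 2 (1.53 ± 0.21, adjusted p = 0.0072, edgeR), with wild type 1 and hemizygous 1 high. GDF15, a stress-induced secreted factor, stood at 25.1, 18.4 and 5.02 CPM in the samples numbered 1 and 9.44, 8.54 and 10.2 CPM in those numbered 2 (2.28 ± 0.21, adjusted p = 0.0012, edgeR). Homozygous 1 was the lowest sample for both genes. The medians of the mitochondrial genome list were -0.26, -0.32 and 0.19, and 1 of its 15 genes was called in the homozygous interaction. Cholesterol synthesis had 3 of 25 members with a more positive homozygous change, among them IDI1 (0.69 ± 0.14, adjusted p = 0.037, edgeR), and the core pluripotency list 1 of 24. With length and GC trends removed the homozygous interaction called 280 genes with a more positive and 198 with a more negative change, an alternative added after the data were seen.

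Some large differences were in genes listed at low levels, several with 1 sample far from the rest, and how their reads were assigned was not tested. INTS3, a subunit of the Integrator complex present in all cells, was listed at 9.02, 6.13 and 10.6 CPM in the samples numbered 1 and 0.563, 0.797 and 2.31 CPM in those numbered 2 and fell by 2.94 ± 0.31 (adjusted p = 0.012, edgeR). SHLD2P3, a pseudogene of SHLD2 whose reads may belong to its parent, fell by 2.11 ± 0.36. ITPK1, an inositol phosphate kinase, was at 1.33, 0.913 and 1.3 CPM in the samples numbered 1 and 1.05, 28 and 1.03 CPM in those numbered 2, high in hemizygous 2 alone, and was called in the hemizygous interaction (adjusted p = 0.006, edgeR). ZNF560, a zinc-finger gene, was at 19.2, 0.73 and 3.68 CPM in the samples numbered 1 and 18.1, 21.9 and 3.69 CPM in those numbered 2, low in hemizygous 1, and TCEA1P2, a pseudogene, at 2.82, 18 and 2.11 CPM in the samples numbered 1 and 13.6, 6.36 and 7.06 CPM in those numbered 2, and both were called in the same test (adjusted p = 0.0038 and 0.035, edgeR). In the homozygous interaction departures larger than that of COL12A1 were seen in further genes of low level: ENSG00000275895, at 6.27, 9.2 and 16.9 CPM in the samples numbered 1 and 19.9, 28.6 and 1.55 CPM in those numbered 2, and GTPBP6, a GTP-binding protein, at 0.906, 0.782 and 9.39 CPM in the samples numbered 1 and 1.13, 1.08 and 0.566 CPM in those numbered 2. RNA5-8SN1, a ribosomal RNA gene with many copies, stood at 0.116, 0.209 and 1.21 CPM in the samples numbered 1 and 1.46, 1.21 and 0.123 CPM in those numbered 2, SLC25A24, a mitochondrial carrier, at 0.231, 14.4 and 5.44 CPM in the samples numbered 1 and 0.153, 6.21 and 0.123 CPM in those numbered 2, and PCGF2, a Polycomb subunit, at 1.52, 18 and 0.771 CPM in the samples numbered 1 and 0.614, 0.778 and 1.9 CPM in those numbered 2, high in hemizygous 1 alone. The 4 genes with the lowest p in the wild-type interaction were also low in most samples, and none was called. EEF1B2, an elongation factor subunit, was high in wild type 2 alone (4.69, 3.99 and 2.25 CPM in number 1, 65, 2.56 and 2.31 CPM in number 2), as was CHORDC1, an HSP90 cochaperone, and CEP170 and PPFIA1 were highest in wild type 1.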

How the data were processed

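Per the values, the deposited file gives whole-number gene counts, not normalized, for 16199 genes in 6 samples. The TruSeq kit named per the labels' protocols does not keep strand, so reads of overlapping genes on opposite strands cannot be told apart. Tools named per the submitters' processing notes are cutadapt and HISAT2, with the build hg38. Which program and annotation gave the counts is not given in the sources used here. Reads carry no molecular identifiers, so counting error is a lower limit.

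Counts were tested with edgeR 4.0.16 in R 4.3.3 (TMM, filterByExpr with a minimum count of 10, which removed 0 genes, quasi-likelihood, genotype plus replicate number, 2 residual degrees of freedom, Benjamini-Hochberg over all genes). Samples were paired within a genotype by the block. Log2 differences by pair used a prior count of 2. Alternatives used DESeq2 1.42.0, limma 3.58.1, other scalings and filters, each sample left out, and offsets that remove natural splines (3 degrees of freedom) of transcript length and GC in each sample, which 15913 genes (98.2%) matched to GENCODE 29 have. Scripts were tested on simulated data. Promoters are RefSeq's, and figures used Python 3.11.15 and matplotlib 3.10.9.

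Named genes are the 12 largest rises and falls among called genes that have a symbol, average 1 CPM or more and keep the same sign in all genotypes, up to 3 called members a direction of each of 54 gene lists (if none, 3 uncalled), up to 6 called genes or 4 lowest p per interaction, 5 check genes, and 3 members of the 3 lists that differ most between genotypes. Some genes that the rule names are not reported here. Members and lists were chosen with earlier results of these data known.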

Additional observations from a re-analysis of the deposited data

Results flagged for a closer look

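The change from number 1 to number 2 was compared between pairs by a test of the difference itself, the edgeR interaction described above. It departed in 339 genes for the homozygous pair and in 3 genes for the hemizygous pair. A pair holds 1 sample of each number, so an effect of genotype and a single unusual library cannot be told apart. Values in parentheses are the log2 departure of that pair from the other pairs.

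For the hemizygous pair the 3 genes were ITPK1 (5.27), ZNF560 (4.95) and TCEA1P2 (-3.52). Hemizygous 2 stood apart in ITPK1, and hemizygous 1 was the lowest sample in ZNF560 and the highest in TCEA1P2.

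For the homozygous pair the named genes with a more negative change were RNA5-8SN1 (-6.34), ENSG00000275895 (-5.09), GTPBP6 (-4.43), SLC25A24 (-4.29), LINC02641 (-2.29), CTCFL (-1.30), SLC2A1 (-1.21), LAMA5 (-0.74), BHLHE40 (-1.44), MT1G (-0.73), DDIT4 (-2.23), BNIP3 (-2.13), MT2A (-1.11) and MT1H (-0.86). Among them are HIF1-linked genes, metallothioneins and genes listed at low levels.

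Those with a more positive change were PCGF2 (4.70), COL12A1 (4.17), ANXA1 (3.69), MYOF (2.94), FOXD1 (2.62), DCC (2.04), CYTOR (2.20), CCN2 (1.32), TAGLN (1.06), SLC7A11 (1.53), SMAD7 (0.90), IDI1 (0.69), FBN1 (1.32), COL5A2 (1.18), NQO1 (1.04), PLK2 (1.45) and FZD5 (0.85). Except for PCGF2, each of these fell in the samples numbered 2 over the 3 pairs.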

How the results depend on the processing

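The counts of genes that rose (1377) and fell (1945) stayed within 1.5 times under size factors of DESeq2, no filter, a mean CPM of at least 5, DESeq2, limma-voom and removal of length and GC trends. Without the genotype block the samples are unpaired, and the test of the replicate number, which cannot itself be a replicate block, called 953 and 1558. Upper-quartile scaling called 2155 and 1294. Leaving out 1 sample gave 0 to 2981 rising and 1 to 3285 falling genes, the lowest without hemizygous 1. The 339 calls of the homozygous interaction became 1001 under upper-quartile scaling and 169 under DESeq2, the 3 of the hemizygous interaction became 5 under DESeq2, and the 0 of the wild-type interaction became 6 under DESeq2 and 1 with length and GC trends removed. The cause was not tested. Interactions without a sample could not be fitted, since no residual degree of freedom is left. When a sample was left out, the variance share of the replicate number ranged from 31.86% to 58.51%. That of genotype ranged from 23.55% to 44.94%. Without hemizygous 2 the share of genotype (37.09%) was larger than that of the replicate number (31.86%). Of 2738 values of 198 named genes under alternatives, 2057 kept direction and side of the threshold, 639 lost the call, 23 gained it and 19 changed sign. With length and GC trends removed the sign changed in MRPL41 (-0.0846), SOX3 (-0.22), EIF4EBP1 (-0.098), NANOG (0.0582), ANKRD37 (-0.11), and without the genotype block in ANKRD37 (-0.118) and BNIP3 (-0.247). With 1 sample left out the sign changed in NANOG, LIN28A, ANKRD37, DDIT4 and BNIP3. The lowest and highest values of these fits were -0.29 and 0.0724 for NANOG and -0.0934 and 0.237 for LIN28A. They were -0.488 and 0.986 for ANKRD37, -1.07 and 0.167 for DDIT4, and -0.369 and 0.837 for BNIP3. Differences within pairs exceeded counting error (chi-square per degree of freedom 41.73 to 90.3). With 2 residual degrees of freedom no gene had an adjusted p below 0.012.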

Other observations

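The remaining lists are given with their medians and their calls, the calls also with length and GC trends removed. Among all genes 8.5% rose and 12% fell, and with the trends removed 7.07% rose and 8.14% fell. Of 21 genes of epithelial junctions 2 rose and 3 fell (median -0.03), and 3 and 3 with the trends removed. Of 24 genes of lysosomes and autophagy 1 rose and 3 fell (median -0.09), and 1 and 7 with the trends removed. Of 72 mitochondrial ribosomal protein genes 1 rose and 2 fell (median 0.06), and 2 and 6 with the trends removed. Of 32 proteasome genes 0 rose and 4 fell (median -0.04), and 0 and 4 with the trends removed. Of 8 genes of the TCP1 chaperonin 0 rose and 0 fell (median -0.07), and 0 and 0 with the trends removed. Of 20 genes of microRNA processing 0 rose and 2 fell (median -0.10), and 0 and 2 with the trends removed. Of 13 replication histone genes 1 rose and 0 fell (median 0.28), and 0 and 0 with the trends removed. Of 20 immediate early genes 0 rose and 2 fell (median -0.03), and 0 and 3 with the trends removed. Of 18 antioxidant genes of the NRF2 list 0 rose and 3 fell (median -0.03), and 0 and 1 with the trends removed. Of 5 genes of primitive streak and endoderm 0 rose and 2 fell (median -0.64), and 0 and 3 with the trends removed. Of 5 mesoderm genes 0 rose and 0 fell (median 0.09), and 0 and 0 with the trends removed. Of 5 neural ectoderm genes 0 rose and 0 fell (median 0.13), and 0 and 0 with the trends removed. Of 4 neural crest genes 0 rose and 1 fell (median -0.03), and 0 and 1 with the trends removed. Of 12 neuronal genes 0 rose and 1 fell (median -0.09), and 0 and 1 with the trends removed. Of 5 trophoblast and amnion genes 1 rose and 0 fell (median 0.08), and 1 and 0 with the trends removed. Of 10 BMP targets 0 rose and 1 fell (median -0.40), and 0 and 2 with the trends removed. The 1 that fell was SMAD7, which is also counted in the Nodal list.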
